A study of Mus musculus with 6 samples.

Results

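Car9, Hilpda, Pdk4 and Car8 were followed in D2.OR, a murine breast cancer line whose cells tend to lie dormant after dissemination. They were taken by their Ensembl identifiers without the version, and all 4 had a row among the 53647 features of the table of normalised read counts. In the first group the cells carried a lentiviral hairpin RNA against Slx4ip (shSLX4IP, n = 3), and in the other a scrambled, non-targeting hairpin (Scram, n = 3). Both were selected with puromycin and grown for 7 days in medium with 10% serum on a layer of Cultrex, a basement membrane extract, so that both groups share transduction, selection and 3D culture. The labels describe 1 hairpin against Slx4ip in 1 cell line, term the replicates biological, and leave unsaid whether each was its own culture. The p-values therefore measure the spread between these libraries, part of which may be technical.

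Cells short of oxygen stabilise the alpha subunit of the hypoxia-inducible factor HIF, which pairs with ARNT, binds a short core sequence in promoters and enhancers, and raises glycolysis, acid export and lipid storage. Car9 encodes a membrane carbonic anhydrase with its catalytic domain outside the cell and is a classic HIF target in carcinomas. Hilpda, another HIF target, encodes a small lipid droplet protein that inhibits the triglyceride lipase ATGL. Pdk4 encodes a kinase that phosphorylates and shuts off the pyruvate dehydrogenase complex, and it is known for its induction by fasting and fatty acids. Car8 encodes a carbonic anhydrase-related protein that lacks the catalytic activity of the family and binds the IP3 receptor, best known in Purkinje cells of the cerebellum.

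Promoter sequence was examined for the core that HIF binds, because Car9 and Hilpda are set side by side here as hypoxia-induced genes. RefSeq windows on GRCm38.p6 covered 250 bases before to 50 bases after a gene's start, and Car9, Hilpda with 2 starts, and Pdk4 had such windows. The letters ACGTG and GCGTG were searched on both strands, and matches can share bases, as CACGTG holds ACGTG on each strand. Of 32851 windows in the table, 19.6% held ACGTG, 32.4% held GCGTG and 43.8% held at least 1 of them. The stretches of 30 bases around each match are printed on the strand of the gene, with the match in capitals. In Car9 the match is CACGT, which is ACGTG on the opposite strand.
Car9, chr4:43506996-43507025 (+): ctatttccgatgCACGTacagcccgtccac
Hilpda, chr6:29272503-29272532 (+): caaccgcgagccGCGTGctttccgtgactc
Hilpda, chr6:29272571-29272600 (+): gatggccagcggACGTGccccagggcgagc
Hilpda, chr6:29272606-29272635 (+): caggttcggtacGCGTGcgcagtctccgag
Pdk4, chr6:5496332-5496361 (-): gttgtggagaggGCGTGgaggtagataaaa
The Car9 match began 18 bases before the RefSeq start. That start, at 43507026, lies inside Car9 as GENCODE annotates it, from 43506966, and so does the match. The Hilpda matches began 111, 43 and 8 bases before the more downstream of its 2 starts, and the first of them lay 28 bases into the transcript from the upstream start. The Pdk4 match began 71 bases before its start. A match is a run of letters that many promoters hold, and the presence of one does not show that a factor was bound.

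The table can be read by gene in part only. Each library held between 5433573 and 6693111 recovered reads. On the deposited scale Scram A stood apart. There 1 recovered read counted as 1.46, against 0.80 to 0.98 in the other libraries. Its values summed to 8948118, against 5276405 to 5974334 in the others, and 8464 features were above 0, against 10548 to 11611. Protein-coding genes with a row were ordered along GRCm38, and 4 segments stood out for their density of highly read genes, on chromosomes 4, 6, 15 and 18. Within them 26.0% of 569 protein-coding genes were listed at 0 in every library, against 52.4% of 21296 outside, a contrast that follows in part from how the segments were chosen. All 4 genes lie inside, Car9 and Car8 between 3574875 and 59904737 on chromosome 4, and Hilpda and Pdk4 between 3372257 and 30509783 on chromosome 6. Features in the segments and in the mitochondrial genome are called placed. Slx4ip, on chromosome 2, lies outside and was listed at 0 in all 6 libraries, so the hairpin's target gave no check of the labels. Of the 12 epithelial markers, Grhl2 and Esrp1 were placed, and their summed value was 2.93 to 22.6 in shSLX4IP and 26.2 to 82.0 in Scram. Grhl2 alone overlapped between the groups and did not pass (limma adjusted p = 0.177), and Esrp1 was too low to test. Groups that did not overlap, in either direction, were found for 53.5% of all features and 67.1% of placed features. Cav1, the 1 placed basal marker of 5, had 13418 to 14103 in shSLX4IP and 20895 to 21283 in Scram. Cd72, the 1 placed leukocyte marker of 4, had 6.34 to 24.7 in shSLX4IP and 26.4 to 58.9 in Scram and did not pass (limma adjusted p = 0.112). Cd72 shares 1423 exonic bases with Tesk1 on the other strand, which averaged 1370 in shSLX4IP and 3114 in Scram. Which of the 2 genes such reads came from was not tested. None of 3 endothelial markers was placed.

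Of the 4 genes, 3 had a mean over the libraries of 10 or more and were tested, and Pdk4 did not. Car9 fell, Car8 was called higher against a listed 0 in Scram, and Hilpda did not pass the test. Over all 8127 features tested, limma called 11.3% lower and 11.7% higher in shSLX4IP (23.0% in all), and among the 462 placed features it called 22.9% lower and 17.3% higher (40.3% in all). Calls were thus common in this comparison, and the 2 calls among 3 tested genes are to be read against that share. The median log2 fold change over the 3 genes, 0.59, is the value of Hilpda itself and no measure of a shared shift. The median was 0.25 over all features and -0.23 over placed features.

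**Figure D1:**
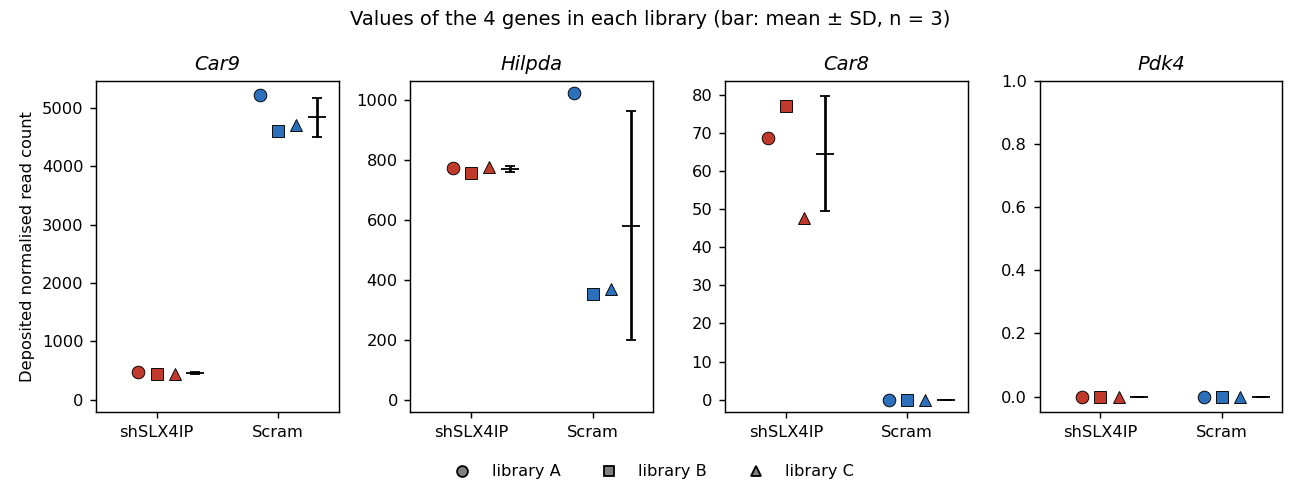
Deposited normalised read counts (y axis, a separate linear scale for each gene) of Car9, Hilpda, Car8 and Pdk4 in the 3 shSLX4IP and the 3 Scram libraries, with the mean and SD as a bar beside the points. Car9 lies between 435 and 472 in shSLX4IP and between 4606 and 5226 in Scram, Hilpda is spread by Scram A, Car8 is at 0 in Scram and Pdk4 is at 0 throughout.

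Car9 (ENSMUSG00000028463.15, chromosome 4, 43506966 to 43513729, plus strand) had normalised read counts of 472, 445 and 435 in shSLX4IP A, B and C, against 5226, 4606 and 4708 in Scram A, B and C. The highest shSLX4IP library lay far below the lowest Scram library, and the spread inside each group was small. The means were 451 ± 19.2 in shSLX4IP and 4847 ± 333 in Scram (SD, n = 3 each). Car9 fell 10.7-fold, a log2 fold change of -3.42 (SE 0.13, 95% interval -3.75 to -3.10, limma adjusted p = 0.000224). The groups did not overlap, with shSLX4IP below Scram, which was also so for 23.4% of all features and 39.4% of placed features; in either direction the shares were 53.5% and 67.1%. These values rest on 521, 456 and 546 reads in shSLX4IP and on 3569, 4931 and 5165 reads in Scram. Per kilobase of exon, the level of Car9 ranked 241 of 431 placed nuclear features in shSLX4IP and 42 in Scram. Its log2 fold change was the 26th lowest of these 431.

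Other features bear on the reading of Car9. Of its 2304 exonic bases 214 overlap Gm12454, an antisense gene, which was at 50.7, 30.3 and 30.3 in shSLX4IP and at 92.3, 34.6 and 47.4 in Scram. The groups overlapped in Gm12454, and no test of it is given. The strand setting of the counting is not given in the sources used here, and the part of this overlap in the values of Car9 was not tested. Of 7 mesenchymal or fibroblast markers 2 were placed. Their summed value was 1662 to 1786 in shSLX4IP and 20574 to 25782 in Scram. Col1a2, a chain of type I collagen, fell to 271 ± 31.4 in shSLX4IP, against 23243 ± 2627 in Scram (log2 fold change -6.42, limma adjusted p = 7.64e-05), whereas Zeb1, which represses epithelial genes, had 1450 ± 30.9 in shSLX4IP and 690 ± 312 in Scram and did not pass (limma adjusted p = 0.0798). Zeb1 passed in 6 of 18 other settings, which included leaving out Scram A (limma adjusted p = 0.00687) or Scram B (0.0464). None of the placed mesenchymal markers was at 0 in either group. The part of cell make-up in the fall of Car9 was not tested, and in bulk RNA fewer cells of a type and less RNA per cell cannot be told apart.

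Hilpda (ENSMUSG00000043421.9, chromosome 6, 29272488 to 29275446, plus strand) had normalised read counts of 773, 759 and 779 in shSLX4IP A, B and C, against 1024, 353 and 368 in Scram A, B and C. Scram A lay above all shSLX4IP libraries, and Scram B and C lay below all of them, so that the groups overlapped. The means were 770 ± 10.3 in shSLX4IP and 582 ± 383 in Scram (SD, n = 3 each). The coefficient of variation was 1.34% in shSLX4IP and 65.8% in Scram. The log2 fold change was 0.59 (SE 0.44, limma adjusted p = 0.353). Its 95% interval ran from -0.50 to 1.68, on both sides of 0. Without Scram A the log2 fold change was 1.09 (SE 0.08, limma adjusted p = 0.000831).

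Scram A was high in other short genes too. Hilpda has 1103 exonic bases, and its value in Scram A over the average of the other 2 Scram libraries was 1.50 on the log2 scale. The same ratio had a median of 0.94 over the 20 placed nuclear genes nearest to Hilpda in exonic length, and 14 of those 20 were above 0. Split by exonic length into tertiles, 353 placed nuclear genes that averaged 100 or more had a median ratio of 0.84 in the shortest tertile, -0.02 in the middle tertile and -0.27 in the longest tertile. For Car9, of 2304 exonic bases, the ratio was 0.17, below the median of 0.57 of the 20 genes nearest to it in length.

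**Figure D2:**
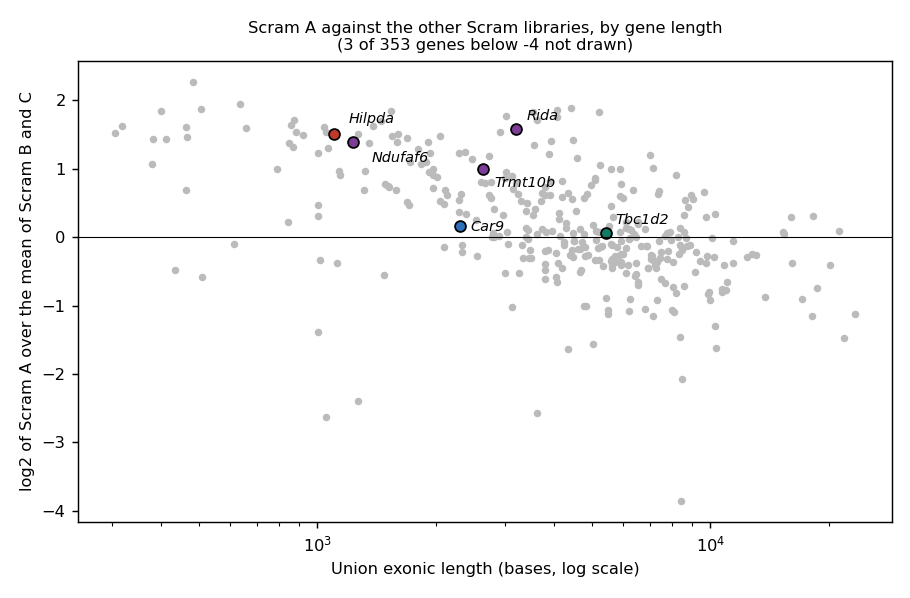
The log2 ratio of Scram A over the average of the other Scram libraries (y axis) against union exonic length in bases (x axis, log scale) for 350 of 353 placed nuclear genes that averaged 100 or more; the other 3, Ndufa5, Pakap and Fsbp, lie below -4 and were listed at 0 in Scram A. Short genes lie mostly above 0, Hilpda at 1.50 and Car9 at 0.17.

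The value of Hilpda also depended on the scaling. In RPM, reads scaled to the same total in each library, a scaling chosen after the values were seen, Hilpda had 146, 143 and 146 RPM in shSLX4IP A, B and C, against 114, 61.8 and 61.6 in Scram A, B and C. On that scale all shSLX4IP libraries lay above all Scram libraries, with a log2 fold change of 0.93 (limma adjusted p = 0.0592). With each library's trend with exonic length removed, the values were 1122, 988 and 1122 in shSLX4IP and 504, 352 and 275 in Scram. The log2 fold change was then 1.55 (SE 0.23, limma adjusted p = 0.0016 over placed nuclear features). Car9 fell on each of these scales. Its RPM were 89.5, 83.9 and 81.6 in shSLX4IP and 584, 807 and 788 in Scram, a log2 fold change of -3.07. With the length trend removed, the log2 fold change of Car9 was -2.60 (limma adjusted p = 3.37e-05 over placed nuclear features). Such removal also takes out any difference between the groups that genes of like length share. As deposited, the median log2 fold change was -0.61 in the shortest tertile and 0.05 in the longest. The values with the trend removed thus do not correct for Scram A alone. RPM scaling moved the median log2 fold change from 0.25 to 0.51 over all features and from -0.23 to 0.11 over placed features. It multiplies all genes of a library by the same factor. The moves of Hilpda from 0.59 to 0.93 and of Car9 from -3.42 to -3.07 therefore belong to the scaling.

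**Figure D3:**
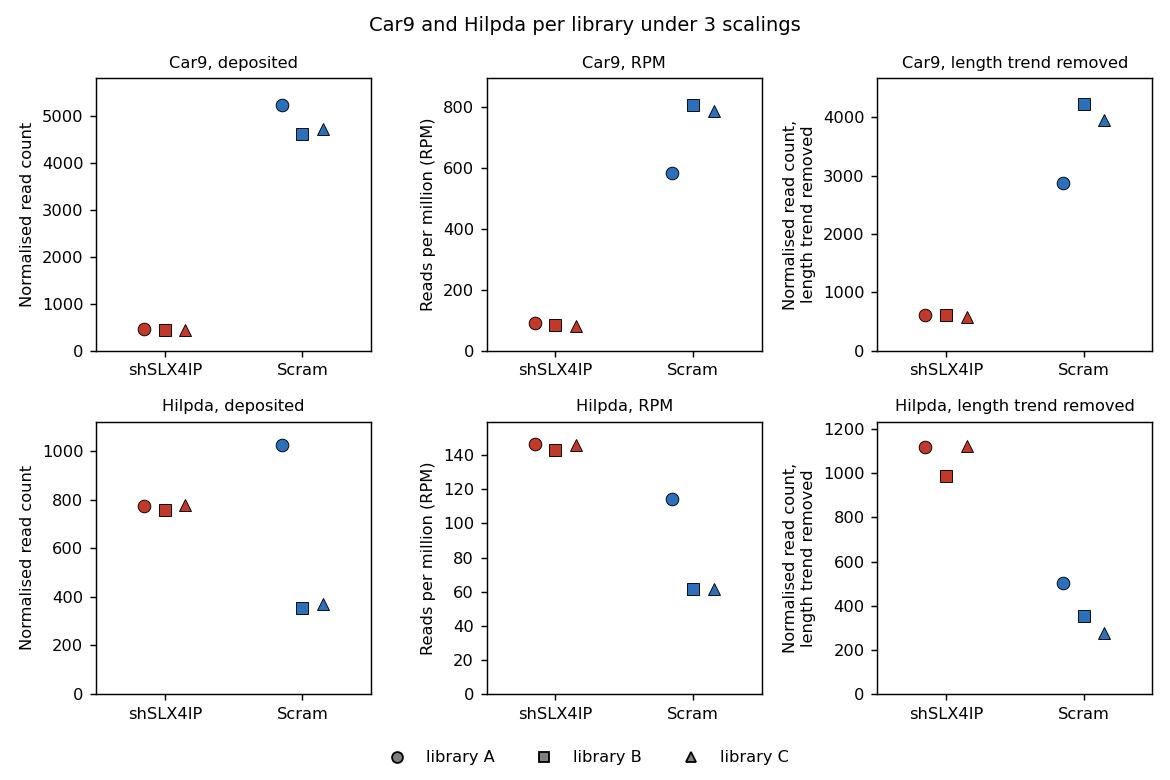
Car9 (upper row) and Hilpda (lower row) in each library as deposited normalised read counts, as RPM and with the length trend removed (y axes, linear from 0). Car9 is lower in shSLX4IP in all 3 columns, and Hilpda overlaps between the groups as deposited and separates in the other columns, with shSLX4IP above Scram.

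Car9 was lower in every shSLX4IP library than in any Scram library and Hilpda was not. In these libraries the 2 hypoxia-induced genes thus did not move together. The difference between log2 Car9 and log2 Hilpda was -0.71, -0.77 and -0.84 in shSLX4IP A, B and C, against 2.35, 3.70 and 3.67 in Scram A, B and C. Every shSLX4IP library had fewer normalised reads of Car9 than of Hilpda, and every Scram library had more. This difference averaged -0.77 ± 0.06 in shSLX4IP and 3.24 ± 0.77 in Scram (SD, n = 3 each), a change of -4.01 on the log2 scale. An exact two-sided permutation test over the 6 libraries gave p = 0.1, the smallest that 3 against 3 allows. Without Scram A the change was -4.46 (exact permutation p = 0.2, with fewer libraries still). Over all the other settings tried it stayed between -4.46 and -3.78. In all 18 other settings the log2 fold change of Hilpda was above 0 and that of Car9 below 0.

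Car8 (ENSMUSG00000041261.10, chromosome 4, 8143362 to 8239041, minus strand) had normalised read counts of 68.8, 77.1 and 47.8 in the shSLX4IP libraries A, B and C, against a listing of 0 in each Scram library. The values in shSLX4IP rest on 76, 79 and 60 reads. A listed 0 in this table need not be a count of 0. Ndufa5, a subunit of respiratory complex I that was looked at after its values were seen, was at 1361 in shSLX4IP B and at 0 in the other 2 shSLX4IP libraries, against 2937 in Scram C and 0 in the other 2 Scram libraries. Pakap was at 1167, 1040 and 1180 in shSLX4IP, against 0, 308 and 342 in Scram. Within 1 group, 4 placed nuclear features that averaged 10 or more stood at 0 in a library and at 100 or more in another. Car8 was listed at 0 in all Scram libraries alike, as were 8 of the 431 placed nuclear features, Car8 included; 9 of the 431 were at 0 in all shSLX4IP libraries. No fold bound is therefore given for Car8, and whether its 0 is a failed assignment was not tested. Its log2 fold change was 6.01 (SE 0.48, limma adjusted p = 0.00103) and depended on the added constant, since 1 group was at 0. Car8 remained a low gene, with 16.8 normalised reads per kilobase in shSLX4IP, rank 382 of 431, where the median of placed nuclear features was 235. As listed, the catalytic Car9 was lower and the non-catalytic Car8 higher in shSLX4IP, both with groups that did not overlap. For Car8 this rests on the listed 0 in Scram, and its mean passed the filter through shSLX4IP alone. Higher in shSLX4IP with no overlap, as Car8 was, were 30.2% of all features and 27.7% of placed features.

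Pdk4 (ENSMUSG00000019577.7, chromosome 6, 5483351 to 5496309, minus strand) was listed at 0 in all 3 shSLX4IP and all 3 Scram libraries. No test or limit is given for it, since the 6 values are equal and a listed 0 need not be a count. Pdp1, a phosphatase that reverses the action of such kinases on pyruvate dehydrogenase, was at 918, 940 and 908 in shSLX4IP and at 773, 754 and 861 in Scram. Its groups did not overlap, but the log2 fold change of 0.21 (SE 0.14) did not pass (limma adjusted p = 0.3). Pdk4 and Pdp1 were the 2 placed genes of 15 in the list of the pyruvate dehydrogenase complex and its regulators.

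The pathways around the 4 genes could be read through few placed members. Of 46 hypoxia-induced genes 3 were placed, and 2 of them, Car9 and Hilpda, were tested. The other, Lep, the leptin gene that hypoxia induces in several cell types, was listed at 0 in each shSLX4IP library, against 8.79 in Scram A, 6.54 in Scram B and 0 in Scram C, and was too low to test. None of 19 genes of HIF regulation was placed, nor was any of the 3 IP3 receptor genes. Of 16 carbonic anhydrases Car8 and Car9 were placed. Of 25 genes of acid and bicarbonate transport 3 were placed and 1 was tested. This was Atp6v1c1, a subunit of the proton pump V-ATPase, with 421, 761 and 674 normalised reads in shSLX4IP A, B and C, against 3841, 1787 and 2052 in Scram A, B and C. Atp6v1c1 fell, with a log2 fold change of -2.01 (SE 0.38, limma adjusted p = 0.0169). That call was lost without any 1 of the shSLX4IP libraries (limma adjusted p = 0.0512 to 0.0632). Atp6v1c1 ends where its segment on chromosome 15 ends, at 38692446, and its own mean of 1589 counted towards that segment. Slc26a7, an anion transporter, and Atp6v0d2, another V-ATPase subunit, had no more than 3.62 in any library. Hilpda was the 1 placed gene of 25 in the list of lipid droplets and lipolysis.

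No tested gene directly next to Car9 or Car8 was called in the same direction as its neighbour. Next to Car8 this rests on Rab2a alone, since Tox was listed at 0 in all 6 libraries and could show no change. Car9 lies between Arhgef39 and Tpm2, a beta-tropomyosin of actin filaments, whose end is 981 bases from that of Car9. Tpm2 had 1215, 1499 and 1556 normalised reads in shSLX4IP A, B and C, against 256, 80.3 and 95.7 in Scram A, B and C. It rose where Car9 fell (log2 fold change 3.48, SE 0.47, limma adjusted p = 0.00545). Arhgef39 was at 491 to 707 in shSLX4IP and at 498 to 994 in Scram and did not pass (log2 fold change -0.23, limma adjusted p = 0.585). That small difference turned positive without Scram A (0.038), in RPM (0.11) and with the length trend removed (0.33). Of the 12 protein-coding genes within 6 places of Car9, 9 were tested, and 2 were higher and 2 lower, where limma called 17.3% of placed features higher and 22.9% lower. The 2 lower, as Car9 was, were Tesk1 (log2 fold change -1.17) and Creb3 (-1.66).

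Hilpda lies between Impdh1, a rate-limiting enzyme of guanine nucleotide synthesis, and Fam71f2. Impdh1 was at 4965, 4735 and 4943 in shSLX4IP and at 5297, 3696 and 3670 in Scram, again with Scram A above and Scram B and C below shSLX4IP, and did not pass (limma adjusted p = 0.371). It passed in 4 of 18 other settings, which included leaving out Scram A (log2 fold change 0.41, limma adjusted p = 0.00438). Fam71f2, 4146 bases beyond the end of Hilpda, was at 54.4, 59.6 and 43.0 in shSLX4IP and listed at 0 in Scram (limma adjusted p = 0.00116). Its mean passed the filter through shSLX4IP alone. Its log2 fold change depended on the added constant, at 6.71 with 0.5 and 3.51 with 5. Of the 12 protein-coding genes within 6 places of Hilpda, 10 were tested, and the 5 that passed were all higher, against 17.3% of placed features. Of these 5, Prrt4 lost its call in 7 of 18 other settings (limma or edgeR adjusted p = 0.0579 to 0.13). Among them were the omission of Scram C or of any 1 shSLX4IP library. Fam71f2 and Fam71f1 were listed at 0 in Scram. Both of them, and Prrt4 with a mean of 9.02 in Scram, reached the mean of 10 needed for a test through shSLX4IP alone. The count of 5 thus depends on that filter and is not read as a result about the region. Flnc, a filamin that crosslinks actin, was the one with the highest values of these 5, at 11802 ± 623 in shSLX4IP and 3024 ± 430 in Scram (log2 fold change 1.97, limma adjusted p = 0.000834).

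Car8 lies between Tox, a transcription factor gene listed at 0 in all 6 libraries, and Rab2a, a small GTPase of membrane traffic. Rab2a was at 6881, 7264 and 6986 in shSLX4IP and at 18073, 11560 and 12145 in Scram. It fell (log2 fold change -0.95, SE 0.20, limma adjusted p = 0.0223), but the call was lost without Scram C or any 1 shSLX4IP library (adjusted p = 0.0524 to 0.0943), with quantile normalisation (0.0572) and without the intensity trend (0.0582), and the log2 fold change was -0.05 with the length trend removed. Of the 12 protein-coding genes within 6 places of Car8, 8 were tested. The 2 that passed, Rab2a and Ubxn2b, were lower, where limma called 22.9% of placed features lower. In RPM Ubxn2b did not pass (limma adjusted p = 0.0729). Pdk4 lies between Asb4, which had 5.57 to 9.06 in shSLX4IP and 0 to 11.8 in Scram, and Dync1i1, a dynein intermediate chain listed at 0 throughout. Of the 12 protein-coding genes within 6 places of Pdk4, 7 were tested. Of these 2 were higher and 1 lower, against 17.3% and 22.9% of placed features. Dlx5, 1 of the 2 higher, was listed at 0 in Scram and passed the filter through shSLX4IP alone. Slc25a13, a mitochondrial aspartate-glutamate carrier and the other of the 2 higher, lost its call in 5 of 18 other settings (limma adjusted p = 0.0643 to 0.0948). Among them were the omission of Scram C or of any 1 shSLX4IP library.

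**Figure D4:**
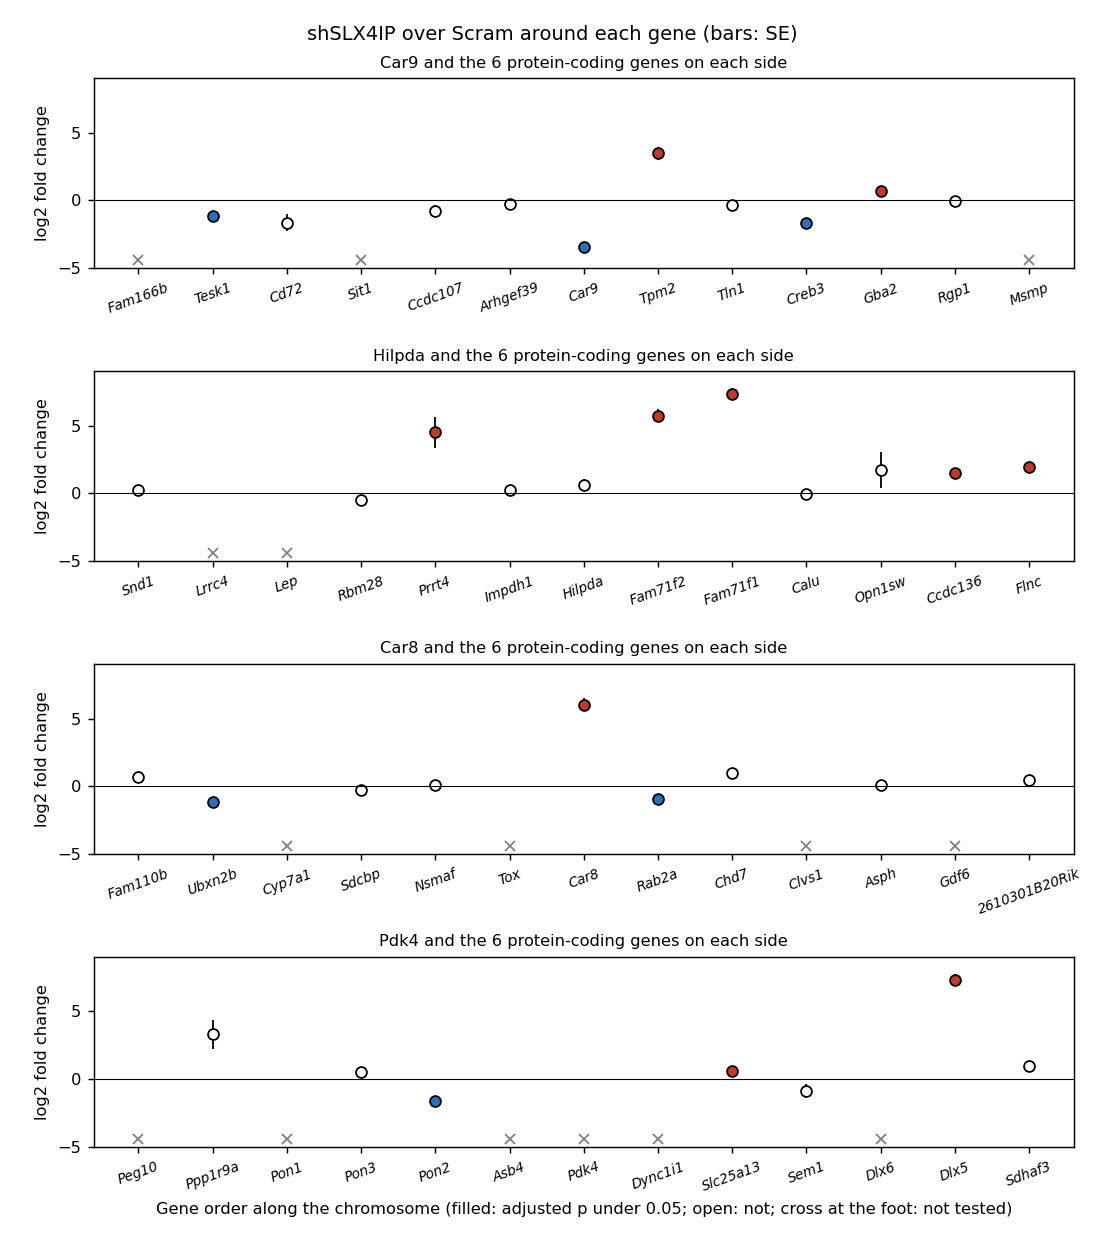
The log2 fold change of shSLX4IP over Scram (y axis, bars are the SE) for each gene and the 6 protein-coding genes on each side in chromosome order (x axis). Filled points passed an adjusted p of 0.05 with limma, open points did not, and crosses at the foot mark genes too low to test; Tpm2 at 3.48 stands beside Car9 at -3.42.

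Some placed features followed a member closely from library to library. Likeness was the mean absolute difference between log2 profiles, each centred on its own mean over the 6 libraries, among 461 other placed features. Closest to Car9 was Tbc1d2, a GTPase-activating protein of Rab7, at a mean difference of 0.10. Tbc1d2 had 115, 108 and 82.0 normalised reads in shSLX4IP A, B and C, against 1236, 1194 and 1180 in Scram A, B and C. Like Car9 it was separated by group with little spread inside either group, which its choice by likeness over these libraries fixes. The next were Cdh17, a cadherin, at 0.38 and Sema5a, a semaphorin, at 0.40, so that Tbc1d2 stood apart from the others in likeness.

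The features closest to Hilpda carried the same high Scram A, which their choice by likeness over these libraries fixes. Ndufaf6, an assembly factor of respiratory complex I, was at 1229, 1132 and 1103 in shSLX4IP and at 1672, 683 and 594 in Scram, a mean difference of 0.10 from Hilpda. Rida, a reactive intermediate deaminase, followed at 0.14 and Trmt10b, a tRNA methyltransferase, at 0.15. Closest to Car8 was Fam71f2, the neighbour of Hilpda described above, at 0.14. Dlx5, a homeobox factor of bone development, at 0.66 and Fam71f1 at 0.67 came next. All 3 were listed at 0 in each Scram library, which the same choice favours.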

How the data were processed

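RNA of 3 shSLX4IP and 3 Scram samples was sequenced from stranded mRNA libraries, per the labels. What the authors deposited is a signal, the count of reads of each gene after division by a library's size factor, as the column headers and values show. Per the submitters' processing notes the tools include STAR 2.7.7, DESeq2 1.22.1, fastp 0.19.5 and StringTie 2.1.7, with the build GRCm38. Not given in the sources used here were their roles, the annotation release, filters and strand setting. The letters of the columns are not tied to replicate numbers. Divided by the lowest value above 0 in its column, 99.98% to 100% of the values above 0 fell within 0.1 of whole reads. On those reads edgeR 4.0.16 called 1566 features and DESeq2 1.42.0 called 3226.

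The main test used limma 3.58.1 (R 4.3.3), two-sided, with a trend on intensity, on log2(value + 1) of features averaging 10 or more. P-values were adjusted by Benjamini-Hochberg over all of these, with 0.05 as threshold. Fold changes are on that log2 scale and understate changes of low genes. The test was tried on simulated data. For the segments, protein-coding genes of GENCODE M21 (GRCm38) scored 3 where they averaged 1000 or more and -1 elsewhere, and runs with a maximal score of 30 or more were used, a rule set after the values were seen. The length trend was a loess curve of each library's deviation from a gene's mean on log2 exonic length, over placed nuclear genes. Named genes were the 4 members, the nearest protein-coding gene on each side, the 3 placed features nearest in profile and the placed members of each list. Flnc, Ubxn2b, Prrt4, Slc25a13, Tesk1, Creb3, Ndufa5, Pakap and Fsbp were named after their values were seen. The members and lists were chosen with earlier results of these data known.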

Additional observations from a re-analysis of the deposited data

How the results depend on the processing

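Car9 and Car8 kept their direction and their call in each of the other settings in which they were tested. For Car8 every setting rested on the same listed zeros in Scram, so the settings could not test whether those were counts. The log2 fold change of Car9 ranged from -3.46 to -2.60 (limma, edgeR or DESeq2 adjusted p at most 0.00585) and that of Car8 from 3.70 to 9.07 (at most 0.0101), which moved with the constant added to its zeros; with a mean of at least 50 Car8 was not tested. Without 1 library in turn Car9 ran from -3.46 to -3.37, Car8 from 5.87 to 6.21, Hilpda from 0.33 to 1.09 and the Car9 minus Hilpda change from -4.46 to -3.78. Hilpda stayed positive throughout and passed in 2 settings, without Scram A (1.09) and with the length trend removed (1.55). DESeq2 called 1602 features higher and 1624 lower, against 952 and 920, and the cause was not tested. Without 1 library in turn the features higher ran from 400 to 1945 and those lower from 414 to 1560, the extremes without shSLX4IP B and Scram A. Pdk4, at 0 in all libraries, could give no difference but 0. Of the other 26 genes followed, 13 kept sign and call in every other setting in which they were tested, 6 lost a call in at least 1 setting (Prrt4 and Rab2a in 7, Cav1 in 6, Slc25a13 in 5, Atp6v1c1 in 3, Ubxn2b in 1), and 6 gained one (Zeb1 in 6, Impdh1 in 4, Rida and Trmt10b in 3, Ndufaf6 and Cd72 in 2). The sign turned for Arhgef39 alone (0.33 with the length trend removed, 0.11 in RPM, and -0.46 to 0.038 without 1 library in turn). No paired analysis was possible because the columns carry letters that are not tied to the replicate numbers of the labels. RPM scaling and adjustment over placed nuclear features alone were chosen after seeing the data. With 3 libraries a group, and 60 to 79 reads behind Car8, small differences were not detectable.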
